A study of Mus musculus with 17 samples.

Results

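The genes described here are 10 genes of mature colonocytes, the absorptive cells that line the upper crypt and the surface of the colon: Car1, Car4, Slc26a3, Aqp8, Krt20, Guca2a, Cdhr5, Fabp2, S100g and Slc9a3. They were taken by symbol from the 55421 genes of the deposited count tables, and all 10 were found and passed the low-count filter in every comparison. The question they address is how much differentiated epithelium, in RNA, colorectal tumors of 4 Tyk2 genotypes still hold.

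Colonocytes arise from stem cells at the crypt base and mature as they move towards the lumen, where they take up sodium chloride and water and secrete bicarbonate. Slc9a3, the apical sodium/proton exchanger NHE3, and Slc26a3, the chloride/bicarbonate exchanger DRA, carry the salt, and the carbonic anhydrases Car1 and Car4 interconvert carbon dioxide and bicarbonate. Aqp8 is a water channel, Guca2a encodes guanylin, a secreted peptide that activates guanylate cyclase C, Krt20 is a keratin of the upper crypt, Cdhr5 is a protocadherin that links the microvilli of the brush border, Fabp2 binds fatty acids in the cytosol, and S100g encodes calbindin-D9k, a cytosolic calcium-binding protein induced by vitamin D. Genes of this kind are commonly reduced in colorectal adenomas and carcinomas.

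Tumors of Tyk2Δ/Δ mice (3 libraries) were set against tumors of Tyk2+/+ mice (3 libraries), and tumors of Tyk2ΔIEC mice (4 libraries) against tumors of Tyk2fl/fl mice (7 libraries), 17 libraries in all. Tyk2 encodes a Janus kinase of the interferon and interleukin-12/23 receptors. In Tyk2Δ/Δ mice the gene is deleted in every cell, and in Tyk2ΔIEC mice a Villin-driven Cre recombinase deletes the floxed gene in intestinal epithelial cells alone, so other cells of the tumor keep it. Tyk2fl/fl mice carry the floxed gene without Cre, and Tyk2+/+ mice carry the unmodified gene. All mice were on the C57BL/6 background and all received the mutagen azoxymethane, followed by repeated cycles of dextran sulfate sodium, an agent that causes colitis, so no library is from healthy colon or untreated mice. The study's legend speaks of pooled tumor samples beside its qPCR of Ido1, and its RNA-seq methods name only macrodissected tumors. Whether the sequenced RNA was pooled is not stated there. The labels do not tie libraries to separate mice, so p-values measure the spread between these libraries, which may be partly technical. Age is not given in the sources used here.

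Counts on genes totalled 19922606 to 21707373 per Tyk2Δ/Δ library, 19789347 to 21318077 per Tyk2+/+ library, 19129696 to 20334948 per Tyk2ΔIEC library and 29777763 to 35427965 per Tyk2fl/fl library. Tyk2 RNA does not check the deletion, because reads outside the floxed exon are still counted: its level was 58.5 ± 0.509 CPM in Tyk2Δ/Δ and 56.4 ± 1.16 CPM in Tyk2+/+ tumors (SD, n = 3 each), and 53.4 ± 1.68 CPM in Tyk2ΔIEC (n = 4) and 49.9 ± 3.84 CPM in Tyk2fl/fl tumors (n = 7). CPM, the usual counts relative to the library total, were corrected for composition by TMM. Xist, which is transcribed from the inactive X chromosome, stood at 1209 to 1267 CPM in Tyk2fl/fl replicates 1 to 3 and at most 3.08 CPM in the other 14 libraries. Epithelial and distal hindgut genes were detected in every library: 12 pan-epithelial markers summed to 9273 to 14270 CPM, and 7 Hox genes of the distal hindgut to 397 to 755 CPM, per library. Single Hox genes were less even than their sum. Within Tyk2fl/fl libraries Hoxd12 ran from 0.102 to 76.1 CPM, whereas Hoxb13 ran from 213 to 291 CPM.

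The 10 genes fell into a group of abundant and a group of scarce transcripts. Per kilobase of annotated exon, the median level over the 17 libraries was highest for Krt20 (135 CPM per kilobase) and Car1 (114), followed by Cdhr5 (55.6), Slc9a3 (53.7) and Guca2a (49.6). The other 5 were lower by this measure, with 8.17 CPM per kilobase for S100g, 3.73 for Car4, 2.06 for Fabp2, 1.42 for Aqp8 and 0.903 for Slc26a3. Counts ranged from 8 for Aqp8 in a Tyk2fl/fl library to 14528 for Slc9a3 in another, and none of the 10 genes was at 0 in any library. Scarce transcripts also varied most between libraries of 1 genotype. The within-genotype SD of log2 CPM was 1.84 for Aqp8, 1.57 for Car4, 1.53 for Slc26a3, 1.04 for Fabp2 and 0.97 for S100g, against 0.41 to 0.55 for the 5 abundant genes and a median of 0.20 over 17252 genes. Of all genes, 0.145% varied more than Aqp8 and 21.8% more than Cdhr5, the least variable of the 10.

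**Figure D1:**
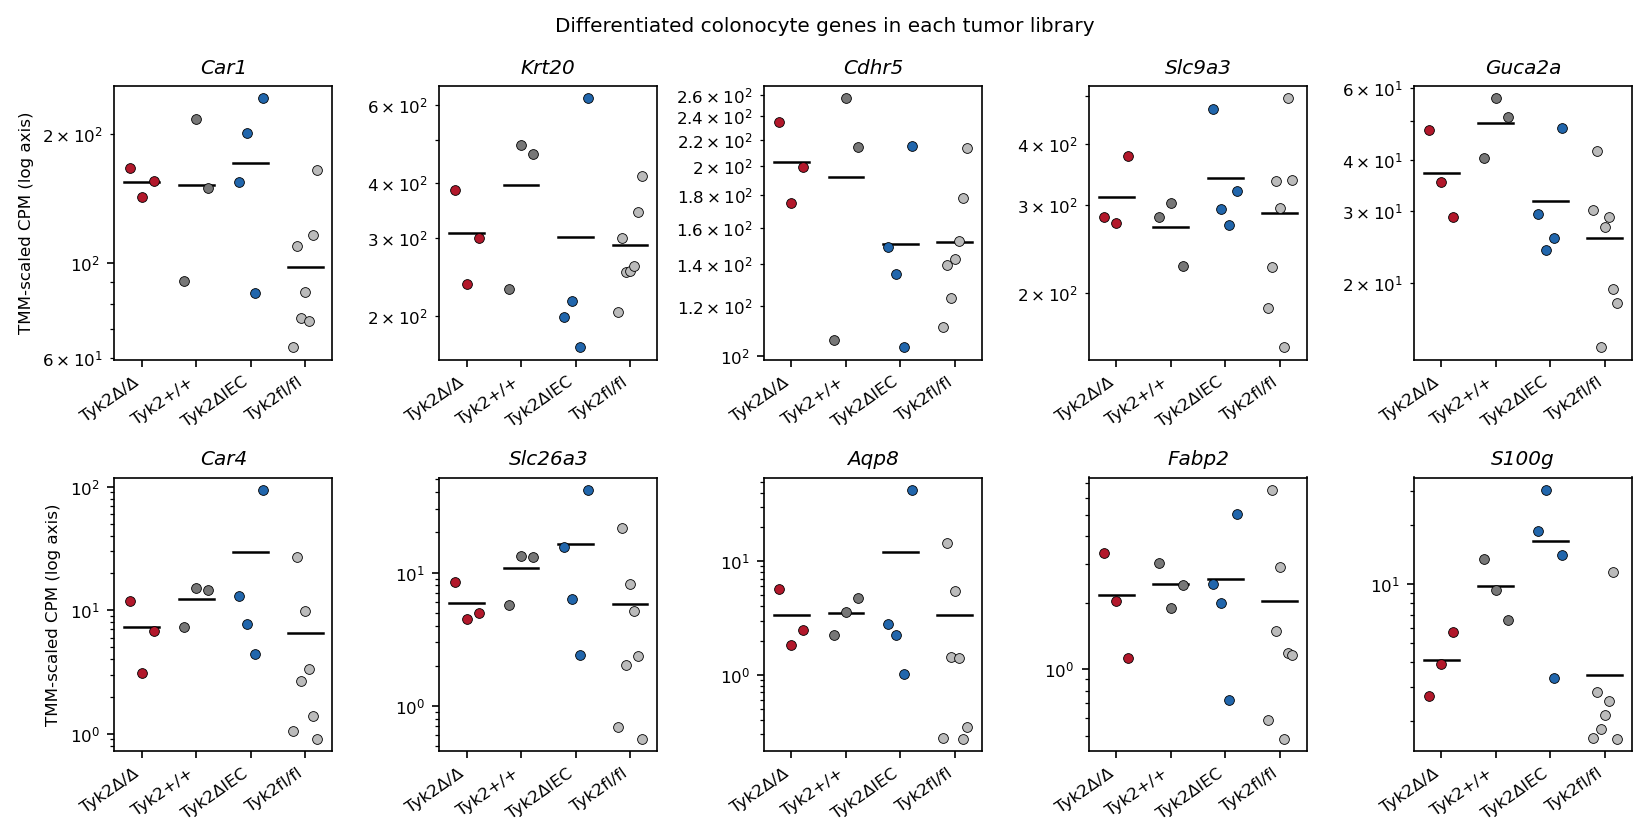
TMM-scaled CPM (log axis, own range per panel) of the 10 genes in each library, with the 4 genotypes on the horizontal axis, a point per library and a bar at the mean. The upper row holds the abundant genes and the lower row the scarce ones, where Tyk2ΔIEC replicate 4 reached 94.1 CPM of Car4 and the 7 Tyk2fl/fl libraries spanned 0.908 to 26.9 CPM.

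Genotypes were compared over all genes that passed the filter by the quasi-likelihood test of edgeR with Benjamini-Hochberg adjustment, and genes changed by more than 2-fold with an adjusted p under 0.05 were called. In Tyk2Δ/Δ against Tyk2+/+ tumors none of the 10 genes was called, 2 had an unadjusted p under 0.05 (S100g and Slc26a3), and DESeq2 called 1 (S100g, lower). Over all 16179 genes tested 0.0927% were called higher and 1.21% lower. The median log2 fold change of the 10 genes was -0.27 beside 0.00 over all genes, and 7 of the 10 values were negative. Over left-out libraries it ran from -0.63 with 9 negative (without Tyk2Δ/Δ replicate 1) to -0.12 with 5 negative (without Tyk2Δ/Δ replicate 3). In Tyk2ΔIEC against Tyk2fl/fl tumors 1 of the 10, S100g, was called higher and none lower, where 1.48% of 17668 genes were called higher and 1.64% lower. Without the 2-fold minimum the count stayed at 1 of 10, beside 10.2% of all genes higher and 9.71% lower, so by that rule the share is near the background. The median log2 fold change of the 10 was 0.56 beside -0.00 over all genes, and 9 of the 10 values were positive. Without Tyk2ΔIEC replicate 4 it was 0.14 with 6 positive values, and with any other single library left out it was 0.50 to 0.88. In the contrast of the controls, Tyk2+/+ over Tyk2fl/fl, the median was 0.54 and 9 of the 10 values were also positive. By this median Tyk2fl/fl tumors were thus the lower group in both contrasts, which share them.

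**Figure D2:**
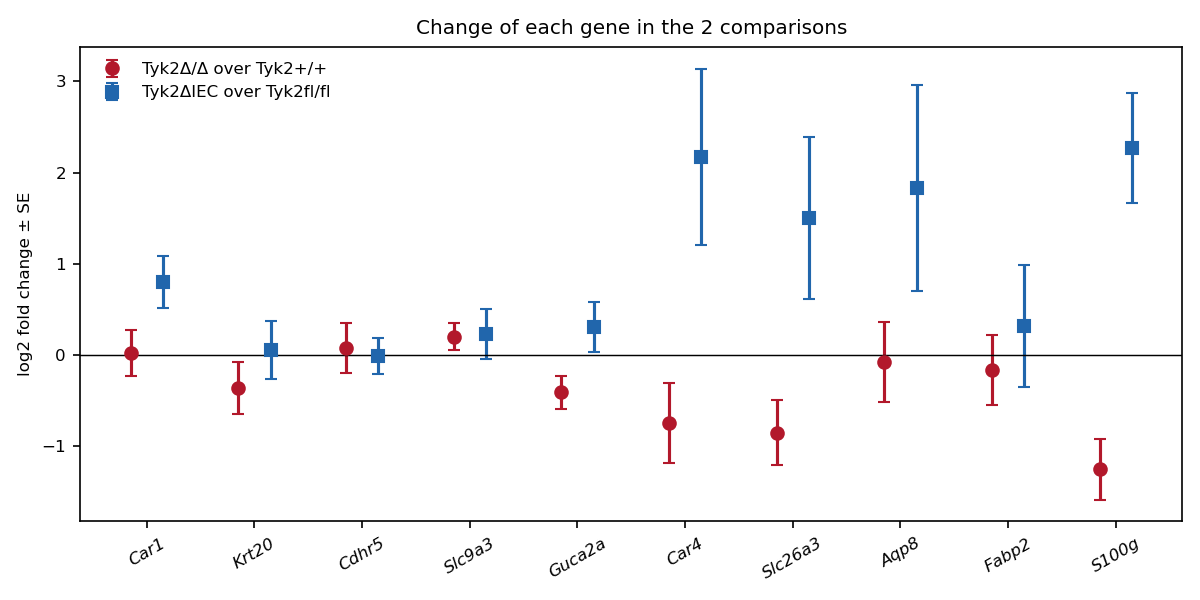
Log2 fold change of each gene, with its standard error, in Tyk2Δ/Δ over Tyk2+/+ tumors (red circles) and in Tyk2ΔIEC over Tyk2fl/fl tumors (blue squares). S100g lies at -1.26 in the first comparison and at 2.27 in the second, and the error bars of Car4, Slc26a3 and Aqp8 in the second are the widest, with standard errors of 0.97, 0.89 and 1.13.

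S100g, the calcium-binding calbindin-D9k, was the gene that separated the comparisons. It lies on chromosome X (162961992 to 162964599, minus strand, GRCm38; ENSMUSG00000040808.4). Its level was 2.68, 3.92 and 5.74 CPM in Tyk2Δ/Δ replicates 1 to 3 and 13.5, 9.29 and 6.55 CPM in Tyk2+/+ replicates 1 to 3. Every Tyk2Δ/Δ library was therefore below every Tyk2+/+ library, which was so for 14.0% of all genes tested, while 14.8% lay wholly higher. Its fitted change was -1.26 (SE 0.33), a 2.39-fold lower level, with an adjusted p of 0.0859 by edgeR's quasi-likelihood test, so it was not called. DESeq2 gave -1.26 with an adjusted p of 0.00432, limma voom 0.0950, and all alternatives other than left-out libraries lay between 0.00432 and 0.787, the highest being the test against 1.5-fold.

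In the epithelial deletion S100g stood at 18.6, 30.2, 3.32 and 14.2 CPM in Tyk2ΔIEC replicates 1 to 4. In the 7 Tyk2fl/fl libraries it had a lowest value of 1.63, a median of 2.15 and a highest of 11.6 CPM. The groups overlapped because Tyk2fl/fl replicate 6 (11.6 CPM) lay above Tyk2ΔIEC replicate 3 (3.32 CPM), and the other 6 Tyk2fl/fl libraries lay at 2.82 CPM or below. S100g rose 4.82-fold in Tyk2ΔIEC tumors (log2 fold change 2.27, SE 0.60, adjusted p = 0.0211). The call was lost without Tyk2ΔIEC replicate 2 (1.79, adjusted p = 0.0919) and against Tyk2fl/fl replicates 4 to 7 alone, the Tyk2fl/fl libraries in which Xist was low (1.88, adjusted p = 0.0946), and also without both Tyk2ΔIEC replicate 4 and Tyk2fl/fl replicate 2 (2.28, adjusted p = 0.0693). A test against a minimum change of 1.5-fold gave an adjusted p of 0.263.

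The direct test of whether both deletions changed a gene alike, over all 17 libraries, called S100g alone among the 10. The difference of its log2 fold changes, germline minus epithelial deletion, was -3.52 (SE 0.94, adjusted p = 0.0300), and over 17252 genes 0.812% were called in the positive and 1.80% in the negative direction. The median difference of the 10 genes was -0.74 beside 0.01 over all genes, with 9 of 10 negative. Car4 differed by -2.92 (SE 1.51, adjusted p = 0.249) and Slc26a3 by -2.35 (SE 1.36, adjusted p = 0.309), so neither passed. Leaving out each library in turn kept the difference of S100g between -4.22 and -3.04, but the adjusted p passed 0.05 when any Tyk2+/+ library, Tyk2Δ/Δ replicate 1 or 2, or Tyk2ΔIEC replicate 2 was missing (0.0518 to 0.0926).

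**Figure D3:**
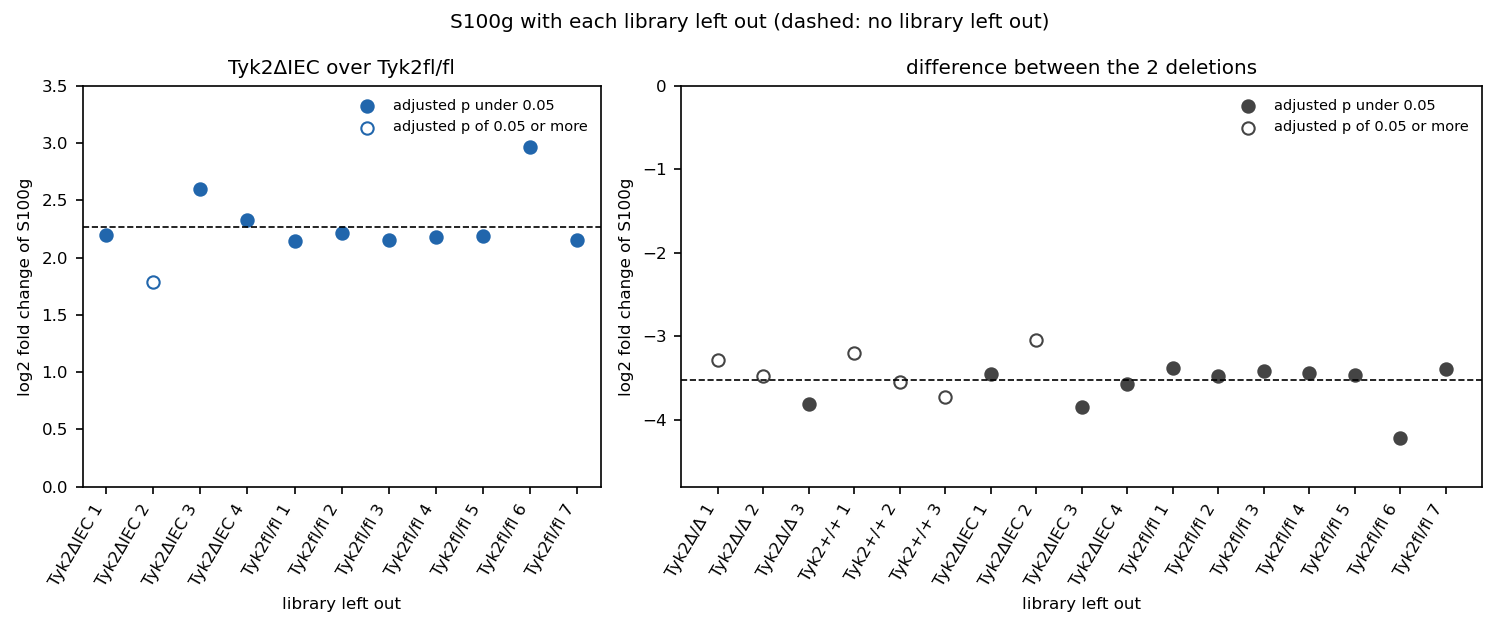
Log2 fold change of S100g in Tyk2ΔIEC over Tyk2fl/fl tumors (left) and its difference between the germline and the epithelial deletion (right), each refitted without the library named on the horizontal axis; filled points have an adjusted p under 0.05, open points do not, and the dashed line is the fit with all libraries (2.27 and -3.52). All values keep their sign, 1 of 11 fits loses the call on the left and 6 of 17 on the right.

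S100g averaged 4.11 ± 1.54 CPM in Tyk2Δ/Δ and 9.79 ± 3.51 CPM in Tyk2+/+ tumors (SD, n = 3 each), and 16.6 ± 11.1 CPM in Tyk2ΔIEC (n = 4) and 3.45 ± 3.61 CPM in Tyk2fl/fl tumors (n = 7). By mean level Tyk2Δ/Δ tumors were thus nearest to Tyk2fl/fl tumors, the lowest group, and Tyk2ΔIEC tumors were the highest. Between neighbours in the order of means only the ranges of Tyk2Δ/Δ and Tyk2+/+ tumors did not overlap. For all other genes each pair of neighbouring genotypes overlapped, so that 29 of 30 such pairs did in all. The control groups of the 2 experiments were not at the same level: Tyk2+/+ over Tyk2fl/fl gave 1.51 for S100g (SE 0.59, adjusted p = 0.101), and 2.20 (adjusted p = 0.00777) without Tyk2fl/fl replicate 6. This gap between the controls enters the difference of S100g between the deletions.

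The control groups differed further for Guca2a. Guanylin RNA was 47.4, 35.4 and 29.1 CPM in Tyk2Δ/Δ and 40.5, 56.7 and 51.1 CPM in Tyk2+/+ replicates 1 to 3, a change of -0.41 (SE 0.18, adjusted p = 0.230). It was 29.5, 24.2, 25.9 and 48.0 CPM in Tyk2ΔIEC replicates 1 to 4, against a lowest of 13.9, a median of 27.4 and a highest of 42.3 CPM in Tyk2fl/fl tumors (0.31, SE 0.27, adjusted p = 0.464). Tyk2+/+ tumors held 1.92-fold as much as Tyk2fl/fl tumors (0.94, SE 0.27, adjusted p = 0.0329), past the adjusted p but short of 2-fold. None of the 10 genes was called between these controls by edgeR, 2 had an unadjusted p under 0.05, and limma voom called 1, Guca2a (1.00, adjusted p = 0.0246). Over all genes 1.41% were called higher in Tyk2+/+ and 0.933% lower, or 7.37% and 5.49% without the fold minimum. Experiment and genotype cannot be told apart in this contrast. The receptor Gucy2c, guanylate cyclase C, had changes of 0.24 (adjusted p = 0.172) in Tyk2Δ/Δ and 0.21 (adjusted p = 0.348) in Tyk2ΔIEC tumors, and none of the 4 other genes of guanylin signalling that were tested, Gucy2c included, passed in either comparison.

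Car4, Slc26a3 and Aqp8 were the genes with the largest spread, and the same 2 libraries were their highest. Car4 stood at 11.9, 3.13 and 6.82 CPM in Tyk2Δ/Δ and at 7.33, 14.99 and 14.4 CPM in Tyk2+/+ replicates 1 to 3 (-0.75, SE 0.44, adjusted p = 0.352). In Tyk2ΔIEC replicates 1 to 4 it reached 12.9, 7.71, 4.38 and 94.1 CPM, against 0.908, 2.69 and 26.9 CPM as the lowest, median and highest of the Tyk2fl/fl tumors. The fitted change was 2.17 (SE 0.97), a 4.51-fold higher level, with an adjusted p of 0.133. Without Tyk2ΔIEC replicate 4 it was 0.33 (adjusted p = 0.850), without Tyk2fl/fl replicate 2, the highest of its group, 3.20 (adjusted p = 0.0305, called), and without both 1.37 (adjusted p = 0.209).

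Slc26a3 followed the same libraries. Its level was 8.42, 4.47 and 4.94 CPM in Tyk2Δ/Δ and 5.75, 13.3 and 13.1 CPM in Tyk2+/+ replicates 1 to 3 (-0.85, SE 0.35, adjusted p = 0.204). In Tyk2ΔIEC replicates 1 to 4 it was 15.6, 6.28, 2.41 and 41.7 CPM, against a lowest of 0.564, a median of 2.34 and a highest of 21.6 CPM in Tyk2fl/fl tumors. The change of 1.502 (SE 0.89) did not pass (adjusted p = 0.255), nor did it without Tyk2ΔIEC replicate 4 (0.47, adjusted p = 0.783) or without Tyk2fl/fl replicate 2 (2.36, adjusted p = 0.0631).

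Aqp8 was at 5.69, 1.84 and 2.49 CPM in Tyk2Δ/Δ and at 2.25, 3.54 and 4.77 CPM in Tyk2+/+ replicates 1 to 3 (-0.08, SE 0.44, adjusted p = 0.936). Its values in Tyk2ΔIEC replicates 1 to 4 were 2.77, 2.25, 1.01 and 42.5 CPM, and in Tyk2fl/fl tumors the lowest, median and highest were 0.272, 1.39 and 14.6 CPM (1.83, SE 1.13, adjusted p = 0.277). Its sign turned without Tyk2ΔIEC replicate 4 (-0.77, adjusted p = 0.699). Fabp2, the fatty acid carrier, had fewer counts but the same highest libraries, 5.08 CPM in Tyk2ΔIEC replicate 4 and 6.50 CPM in Tyk2fl/fl replicate 2. Its other Tyk2ΔIEC and Tyk2fl/fl libraries were at 2.91 CPM or below (0.32, SE 0.67, adjusted p = 0.779). It was 3.38, 2.04 and 1.13 CPM in Tyk2Δ/Δ and 3.02, 1.90 and 2.41 CPM in Tyk2+/+ replicates 1 to 3 (-0.17, SE 0.38, adjusted p = 0.827).

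The promoters of Car4, Slc26a3 and Aqp8, which moved together between libraries, and of S100g, the gene that was called, are shown as RefSeq gives them for GRCm38.p6, from 250 bases before to 50 after the annotated start, 5′ to 3′. They lie at chr11:84957504-84957803, plus strand for Car4, chr12:31437969-31438268, plus strand for Slc26a3, chr7:123462044-123462343, plus strand for Aqp8 and chrX:162964550-162964849, minus strand for S100g. The RefSeq start of Slc26a3 is inside the GENCODE gene (31390871 to 31473917). Capitals mark TATAAA, the TATA box sequence, wherever it occurs in a window, which does not show that it acts as a TATA box. Both strands were also searched for CAAAGT (the HNF4 type), TTTATG (the CDX type), AGATAA (the GATA type) and TTCNNNGAA (the STAT type), of which none overlaps another here.
Car4: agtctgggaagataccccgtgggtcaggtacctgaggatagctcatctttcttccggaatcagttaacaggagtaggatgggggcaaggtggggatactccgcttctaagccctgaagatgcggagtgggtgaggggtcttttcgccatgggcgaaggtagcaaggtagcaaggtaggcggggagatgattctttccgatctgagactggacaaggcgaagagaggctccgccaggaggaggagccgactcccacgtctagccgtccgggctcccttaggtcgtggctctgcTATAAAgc
Slc26a3: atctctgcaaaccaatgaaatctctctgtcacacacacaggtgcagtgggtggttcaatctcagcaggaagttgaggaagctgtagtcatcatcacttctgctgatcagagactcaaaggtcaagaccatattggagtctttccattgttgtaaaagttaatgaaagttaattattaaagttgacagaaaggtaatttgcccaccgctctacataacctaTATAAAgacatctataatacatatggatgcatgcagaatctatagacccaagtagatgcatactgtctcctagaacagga
Aqp8: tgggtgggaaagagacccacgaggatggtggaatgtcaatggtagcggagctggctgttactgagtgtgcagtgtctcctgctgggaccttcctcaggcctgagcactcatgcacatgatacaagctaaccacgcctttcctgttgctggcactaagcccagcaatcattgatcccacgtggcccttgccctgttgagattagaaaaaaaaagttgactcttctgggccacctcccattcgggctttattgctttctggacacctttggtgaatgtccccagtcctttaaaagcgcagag
S100g: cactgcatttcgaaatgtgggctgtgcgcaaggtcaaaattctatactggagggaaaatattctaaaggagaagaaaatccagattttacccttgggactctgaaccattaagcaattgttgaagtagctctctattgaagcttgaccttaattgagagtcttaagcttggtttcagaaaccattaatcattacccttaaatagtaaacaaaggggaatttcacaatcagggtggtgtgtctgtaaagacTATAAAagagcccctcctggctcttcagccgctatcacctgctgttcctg
TATAAA is in 3 of these 4 windows, starting 30 bases before the start in Slc26a3, at the start in S100g and 42 bases after it in Car4, and the other 4 motifs have no match in them. Of the 9 member promoters given in the table, 4 hold TATAAA (Krt20 is the fourth), beside 13.6% of 32851 promoters. CAAAGT is in 1 (Fabp2) beside 14.4% of all, TTTATG in 1 (Cdhr5) beside 11.9%, AGATAA in 2 (Guca2a and Krt20) beside 11.2%, and TTCNNNGAA in 1 (Cdhr5) beside 8.3%.

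Car1 and Slc9a3 were abundant in every tumor. Car1, the cytosolic carbonic anhydrase, stood at 166, 142 and 155 CPM in Tyk2Δ/Δ and at 90.8, 216 and 150 CPM in Tyk2+/+ replicates 1 to 3 (0.02, SE 0.26, adjusted p = 0.972). It was 154, 201, 84.8 and 242 CPM in Tyk2ΔIEC replicates 1 to 4, against a lowest of 63.4, a median of 85.4 and a highest of 165 CPM in Tyk2fl/fl tumors. The change of 0.80 (SE 0.28) was a 1.74-fold higher level with an adjusted p of 0.0635, and it was called when Tyk2ΔIEC replicate 3, the lowest of its group, was left out (1.01, adjusted p = 0.0347). Slc9a3 was 284, 277 and 377 CPM in Tyk2Δ/Δ and 284, 303 and 226 CPM in Tyk2+/+ replicates 1 to 3 (0.20, SE 0.15, adjusted p = 0.459). In Tyk2ΔIEC replicates 1 to 4 it was 470, 295, 274 and 321 CPM, and in Tyk2fl/fl tumors the lowest, median and highest were 155, 296 and 493 CPM (0.23, SE 0.27, adjusted p = 0.589).

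Krt20 and Cdhr5, the structural genes, showed the same overlap. Krt20 was 387, 236 and 300 CPM in Tyk2Δ/Δ and 230, 489 and 466 CPM in Tyk2+/+ replicates 1 to 3 (-0.36, SE 0.28, adjusted p = 0.475). In Tyk2ΔIEC replicates 1 to 4 it was 199, 216, 170 and 622 CPM, against a lowest of 204, a median of 260 and a highest of 415 CPM in Tyk2fl/fl tumors (0.06, SE 0.32, adjusted p = 0.923). Its sign in Tyk2ΔIEC tumors rested on replicate 4, without which the change was -0.58 (adjusted p = 0.0593). Cdhr5 was 235, 175 and 199 CPM in Tyk2Δ/Δ and 106, 256 and 215 CPM in Tyk2+/+ replicates 1 to 3 (0.08, SE 0.28, adjusted p = 0.895). It was 149, 135, 103 and 215 CPM in Tyk2ΔIEC replicates 1 to 4, against 111, 143 and 214 CPM as the lowest, median and highest of Tyk2fl/fl tumors (-0.01, SE 0.20, adjusted p = 0.977). No gene of the 10 had groups that did not overlap in the epithelial deletion, where 7.73% of all genes lay wholly higher and 7.81% wholly lower.

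Within genotypes the 10 genes did not vary as 1 group. As a description, the deviations of log2 CPM from the genotype means were correlated over the 17 libraries, which also share the scaling of each library. Car4, Slc26a3 and Aqp8 formed a block with correlations of 0.91 to 0.98, and these were 0.82 to 0.95 over the 15 libraries without Tyk2ΔIEC replicate 4 and Tyk2fl/fl replicate 2. Fabp2 (0.73 to 0.80) and Guca2a (0.67 to 0.71) correlated with this block, but at 0.46 to 0.57 and 0.28 to 0.39 without those 2 libraries. Car1, Krt20 and Cdhr5 formed another block, with correlations of 0.81 to 0.90 and, without the 2 libraries, 0.86 to 0.95. Correlations between the blocks ran from 0.28 to 0.50, and from 0.01 to 0.29 without the 2 libraries. S100g stood outside both, with correlations of -0.11 to 0.49 with the other genes, the highest being that with Slc9a3. The blocks were picked out after the values had been seen.

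**Figure D4:**
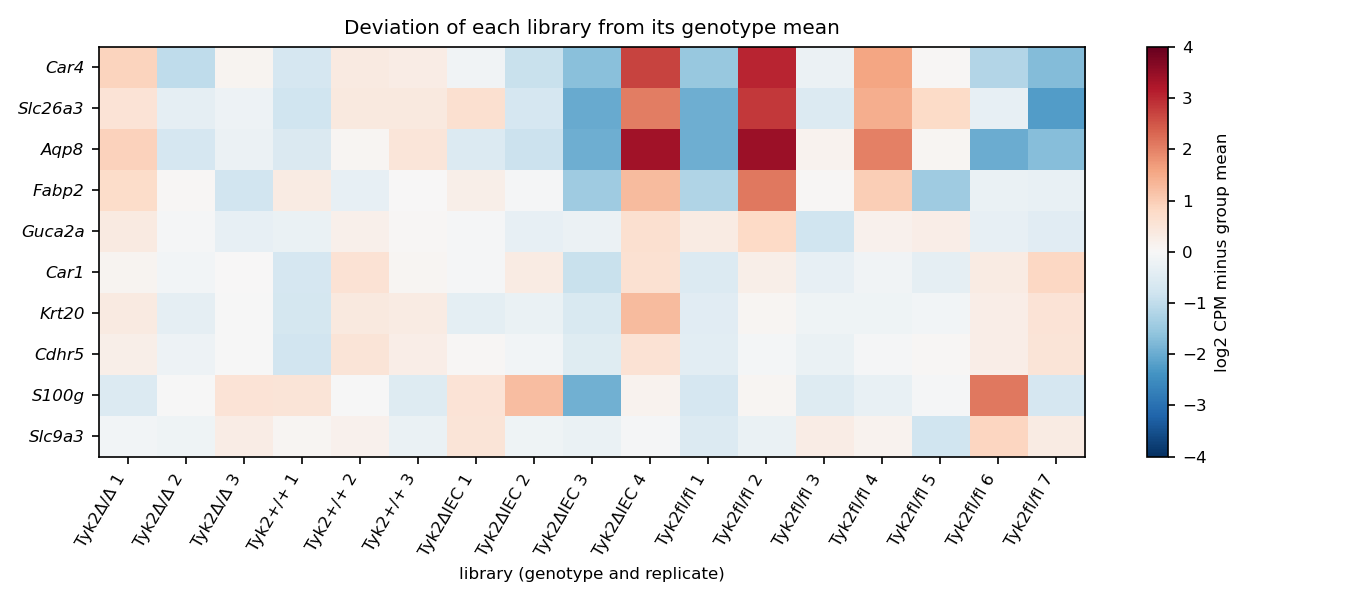
Log2 CPM minus the mean of the genotype for the 10 genes (rows) in each of the 17 libraries (columns), from blue (below the mean) to red (above). Tyk2ΔIEC replicate 4 and Tyk2fl/fl replicate 2 are red for Car4, Slc26a3, Aqp8 and Fabp2, whereas S100g is highest above its mean in Tyk2fl/fl replicate 6.

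**Figure D5:**
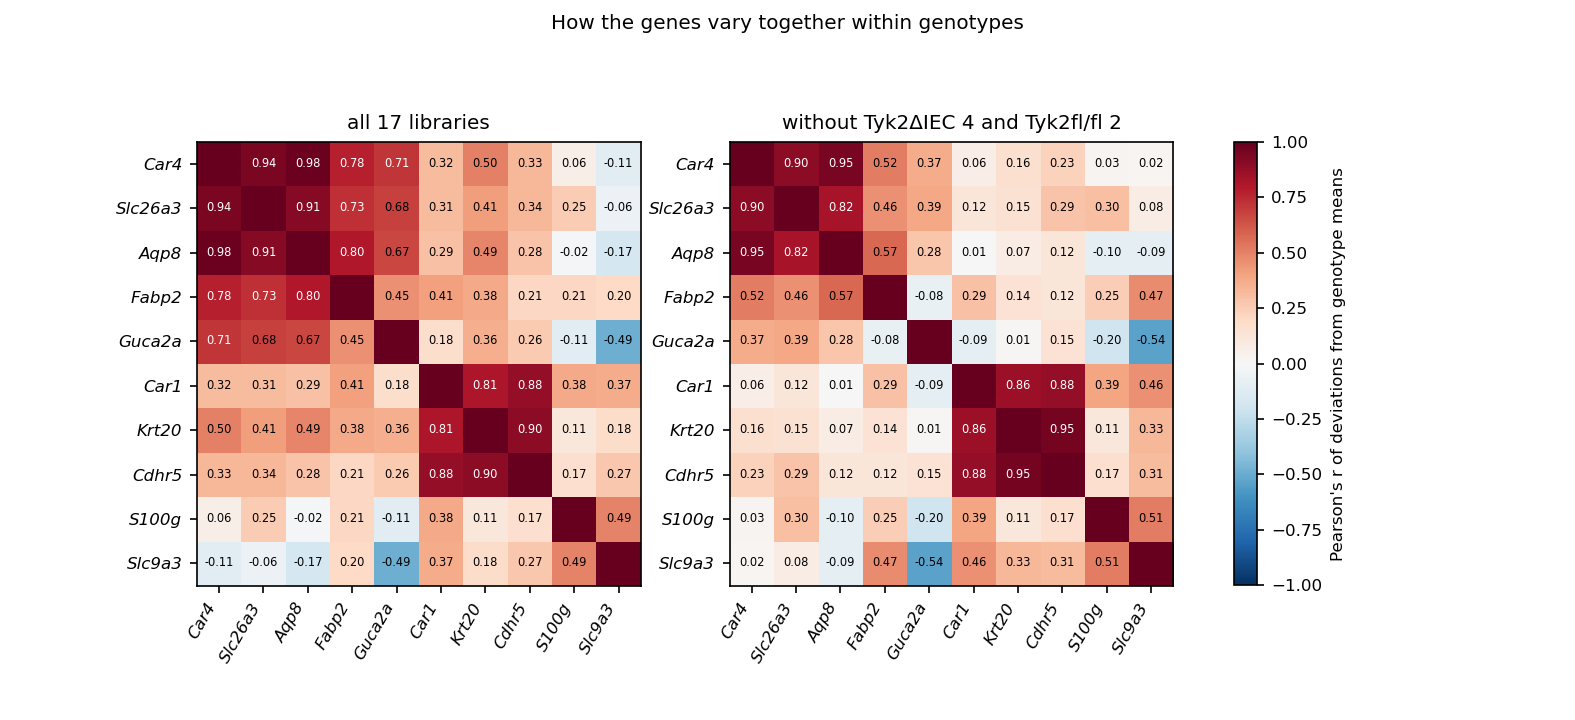
Pearson's r of these deviations between each pair of the 10 genes, over all 17 libraries (left) and without Tyk2ΔIEC replicate 4 and Tyk2fl/fl replicate 2 (right). The blocks of Car4, Slc26a3 and Aqp8 and of Car1, Krt20 and Cdhr5 are seen in both, and the values between them are lower on the right.

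Among 10536 other genes with a mean of at least 10 CPM, those with the highest median correlation to the 10 were Prss30 (0.68), Mep1a (0.68), Abcg2 (0.67), Ceacam1 (0.67), Abcb1a (0.66), Pld1 (0.66), Mgam2-ps (0.65) and Gpr137b (0.64). The 17 libraries are the points of each correlation. In 6 of these 8 genes Tyk2ΔIEC replicate 4 was the highest library.

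Other genes of the same functions were read from lists. Of 20 other transport genes of surface colonocytes none was called in Tyk2Δ/Δ tumors and 1 was lower by the adjusted p alone, the amino acid transporter Slc6a14 (-0.53, adjusted p = 0.0185), where 2.13% of all genes were lower and 0.668% higher by that rule. In Tyk2ΔIEC tumors 6 of the 20 were higher by the adjusted p alone and none lower, and 1 was called, Clca4a (1.66, adjusted p = 0.0393), beside 10.2% of all genes higher and 9.71% lower by the adjusted p alone and 1.48% called higher. Among the others was the sulfate transporter Slc26a2 (0.72, adjusted p = 0.00334). The median of the 20 was -0.04 in Tyk2Δ/Δ and 0.33 in Tyk2ΔIEC tumors. In the contrast of the controls 7 of the 20 were also higher in Tyk2+/+ than in Tyk2fl/fl tumors by the adjusted p alone. By that rule 7.37% of all genes were higher. Slc26a2 stood there at 0.65 (adjusted p = 0.00699) and Clca4a at 1.80 (adjusted p = 0.0297, called). Tyk2fl/fl tumors were thus the lower group in both of these contrasts, which share them. None of 20 other brush border genes tested passed in Tyk2Δ/Δ or Tyk2ΔIEC tumors, and their medians were 0.10 and 0.19. Of 10 genes of small intestinal enterocytes, levels ran from 2 counts over all libraries for Sis (sucrase-isomaltase) and Apoa4 to 34324 for Slc5a1, the sodium/glucose cotransporter, with 3944 for Apob and 2452 for Mttp, and no gene of that list that could be tested passed in Tyk2Δ/Δ or Tyk2ΔIEC tumors.

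Of 7 genes of calcium absorption and vitamin D action, 5 could be tested and none was called. Vdr, the vitamin D receptor, stood at 0.31 (SE 0.11, adjusted p = 0.134) in Tyk2Δ/Δ tumors and at 0.73 (SE 0.17, adjusted p = 0.0137) in Tyk2ΔIEC tumors, where it passed the adjusted p but not 2-fold. The plasma membrane calcium pump Atp2b1 was the other that passed in Tyk2ΔIEC tumors (0.22, SE 0.07, adjusted p = 0.0485). Both were higher, 2 of the 5 tested, where 10.2% of all genes were higher and 9.71% lower by the adjusted p alone. The vitamin D-degrading Cyp24a1, with 4 counts in all libraries together, and Calb1, with 9, were too scarce to test. Trpv6, the apical calcium channel, did not pass in either comparison (-0.15, adjusted p = 0.812 in Tyk2Δ/Δ and -0.52, adjusted p = 0.0752 in Tyk2ΔIEC tumors). Among 12 regulators of colonocyte identity Prdm1, a transcriptional repressor, was the only one past the adjusted p (0.73, SE 0.18, adjusted p = 0.0166 in Tyk2ΔIEC and -0.33, SE 0.10, adjusted p = 0.113 in Tyk2Δ/Δ tumors). In Tyk2ΔIEC tumors 1 of 12 is near the 10.2% of all genes that were higher by that rule. Vdr (0.58, adjusted p = 0.0356), Atp2b1 (0.27, adjusted p = 0.0452) and Prdm1 (0.63, adjusted p = 0.0286) were also higher in Tyk2+/+ than in Tyk2fl/fl tumors by the adjusted p alone, so here too Tyk2fl/fl tumors were the lower group in both contrasts that share them. Hnf4a, a nuclear receptor of the intestinal epithelium, gave 0.24 (adjusted p = 0.0851) in Tyk2Δ/Δ and 0.32 (adjusted p = 0.0785) in Tyk2ΔIEC tumors.

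Of 12 Wnt and stem cell genes none was called. By the adjusted p alone 1 was higher in Tyk2Δ/Δ tumors, Sox9 (0.37, SE 0.06, adjusted p = 0.0193), a transcription factor of the lower crypt. By that rule 0.668% of all genes were higher and 2.13% lower there. In Tyk2ΔIEC tumors 3 were higher (Axin2, Rnf43 and Znrf3, at 0.30 to 0.35) and 3 lower, Sox9 (-0.51, SE 0.10, adjusted p = 0.00513), Smoc2 (-0.41, adjusted p = 0.0155) and Nkd1 (-0.30, adjusted p = 0.0172). Of all genes in that comparison 10.2% were higher and 9.71% lower by the adjusted p alone. The difference between the deletions, germline minus epithelial, was positive by the adjusted p alone for 3 of the 12 and negative for none, beside 2.73% of all genes positive and 5.23% negative. These were Sox9 (0.89, SE 0.14, adjusted p = 8.65e-04), Notum (0.65, SE 0.18, adjusted p = 0.0353) and Nkd1 (0.48, SE 0.14, adjusted p = 0.0427), opposite in sign to S100g. All 3 were lower in Tyk2+/+ than in Tyk2fl/fl tumors by the adjusted p alone (-0.39, -0.66 and -0.43).

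Markers of other cells moved alongside, and in bulk RNA fewer cells of a type and less RNA per cell cannot be told apart. Pan-epithelial markers did not pass in either comparison (0 of 12, medians -0.00 and -0.02), with sums of 11478 to 12030 CPM in Tyk2Δ/Δ, 10612 to 12473 in Tyk2+/+, 10191 to 12736 in Tyk2ΔIEC and 9273 to 14270 CPM in Tyk2fl/fl libraries. In Tyk2Δ/Δ tumors 5 of 10 smooth muscle markers and 3 of 10 leukocyte markers tested were called lower, as were 3 of 7 enteroendocrine markers, the hormones Pyy, Gcg and Insl5, beside 1.21% of all genes called lower. Smooth muscle markers summed to 149 to 229 CPM in Tyk2Δ/Δ and 293 to 498 CPM in Tyk2+/+ libraries, and enteroendocrine markers to 27.8 to 35.7 and 48.2 to 73.2 CPM. In Tyk2ΔIEC tumors the hormone Pyy was higher (2.04, SE 0.48, adjusted p = 0.0126), as was the squamous keratin Krt4 (2.12, SE 0.25, adjusted p = 5.99e-04). The matrix gene Lum was lower (-1.19, SE 0.23, adjusted p = 0.00540). They were the only genes called among 8 enteroendocrine, 7 squamous and 8 fibroblast markers tested, beside 1.48% of all genes called higher and 1.64% lower. By the adjusted p alone 4 of the 8 fibroblast markers were lower and 0 higher, beside 9.71% of all genes lower and 10.2% higher. In Tyk2+/+ against Tyk2fl/fl tumors 3 of the 8 were lower and 0 higher by that rule, beside 5.49% and 7.37% of all genes. Krt4 was also higher (1.67, adjusted p = 0.00310, called) and Lum lower (-0.97, adjusted p = 0.0402) in Tyk2+/+ than in Tyk2fl/fl tumors. Pyy did not pass between these controls (0.68, adjusted p = 0.373). Enteroendocrine markers summed to 61.9 to 101 CPM in Tyk2ΔIEC and 7.45 to 67.8 CPM in Tyk2fl/fl libraries, and squamous markers to 73.2 to 346 and 76.3 to 232 CPM. No marker of the pan-epithelial, smooth muscle, leukocyte, enteroendocrine, squamous, fibroblast or goblet cell lists was at 0 in all libraries of a genotype. Of the tuft cell markers 1, Il25, was at 0 in all Tyk2Δ/Δ and all Tyk2ΔIEC libraries. Tyk2ΔIEC replicate 4, the library highest in Car4, also had the highest goblet cell sum of all (3140 CPM) and the highest enteroendocrine sum (101 CPM), while Tyk2fl/fl replicate 2 had 2132 and 48.2 CPM, within the ranges of 426 to 3029 and 7.45 to 67.8 CPM of its group. The part of these markers in the values of the 10 genes was not tested.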

How the data were processed

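RNA of macrodissected tumors was sequenced in 17 libraries. Per the study's methods, the authors made poly(A)-selected, directional libraries, aligned single-end reads with STAR 2.6.1a and deposited whole-number counts per gene against a GENCODE mouse annotation, with no normalization. The methods name GRCh38, the submitters' processing notes GRCm38, and mouse Ensembl identifiers fill the tables. The 17 single tables held the same values as the series table.

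Groups were taken from the sample labels. After a filter on low counts (filterByExpr with at least 10 counts, 15 in total) and TMM normalization, edgeR 4.0.16 (R 4.3.3) was used to test each deletion against its own control, and the difference between both deletions and the contrast of the controls over all libraries. Genes with an adjusted p under 0.05 and a change over 2-fold were called. The scripts were tested on simulated data. DESeq2 1.42.0, limma 3.58.1, other scalings, filters and left-out libraries were the alternatives. The authors' own analysis used DESeq2. Libraries of 19129696 to 35427965 counts limit the precision of genes with few counts, and no counting interval was needed as each group had replicates.

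The 10 genes and the lists were chosen with earlier results of these data known. Besides the 10 genes, Tyk2 and Xist, the text names up to 3 genes per list with the smallest p, and the 8 genes of at least 10 CPM with the highest median correlation to the 10. Clca4a, Pyy, Gcg, Insl5, Slc9a2, Emp1, Wnt genes and others named to account for a small count were chosen after their values were seen where that rule did not give them. So was Hoxd12, named for its range. Leaving out Tyk2ΔIEC replicate 4 and Tyk2fl/fl replicate 2 together was also chosen after seeing the data. Promoter sequences are from RefSeq (GRCm38.p6), in which 9 of the 10 genes were matched by symbol.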

Additional observations from a re-analysis of the deposited data

Results flagged for a closer look

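In the Tyk2ΔIEC and Tyk2fl/fl groups the highest or lowest library was compared with the rest by the ratio of its gap to the group's range (Dixon's 95% critical value), which chance exceeds in about 1 of 20 groups of normal values. It was exceeded in 8 of 20 combinations of gene and group, and groups of 3 libraries were not tested. CPM were used without logarithms and several of the genes vary together, so the 8 cannot be held against that rate. Tyk2ΔIEC replicate 4 stood apart for Car4 (94.1 CPM), Aqp8 (42.5 CPM) and Krt20 (622 CPM). Tyk2fl/fl replicate 2 stood apart for Car4 (26.9 CPM), Slc26a3 (21.6 CPM), Aqp8 (14.6 CPM) and Fabp2 (6.50 CPM). S100g stood apart in another library, Tyk2fl/fl replicate 6 (11.6 CPM). The fitted change of S100g differed between the deletions, by -3.52 on the log2 scale for the germline minus the epithelial deletion (edgeR adjusted p = 0.0300), with the change in Tyk2Δ/Δ tumors alone not called. That call was lost in 6 of 17 fits with 1 library left out. The difference between the control groups, 1.51 for S100g (edgeR adjusted p = 0.101), enters this value.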

How the results depend on the processing

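In Tyk2Δ/Δ tumors the count of the 10 genes called lower was 0, and 1 (S100g) with DESeq2, without the low-count filter, or when groups that do not overlap were the rule. In Tyk2ΔIEC tumors the count called higher was 1, and 0 with the test against 1.5-fold, against Tyk2fl/fl replicates 4 to 7, without Tyk2ΔIEC replicate 4 and Tyk2fl/fl replicate 2 together, or with groups that do not overlap as the rule. Leaving out 1 library at a time gave 0 (without Tyk2ΔIEC replicate 2) to 2 (Car1 added without Tyk2ΔIEC replicate 3, Car4 without Tyk2fl/fl replicate 2). The difference between the deletions called 1 gene, and 0 when scaled to epithelial genes (S100g -3.57, adjusted p = 0.0553) or without both libraries (-3.55, adjusted p = 0.0656), with 0 to 1 over left-out libraries. Between the controls the count higher was 0, and 1 (Guca2a) with limma voom, no fold minimum or without both libraries, with 0 to 1 over left-out libraries (Guca2a without Tyk2fl/fl replicate 2, S100g without Tyk2fl/fl replicate 6). The cause of these changes was not tested.

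Signs turned only for genes that were not called. In Tyk2ΔIEC tumors Krt20 gave -0.12 with limma voom, -0.093 against Tyk2fl/fl replicates 4 to 7 and -0.58 without both libraries, and Cdhr5 gave 0.019 when scaled to epithelial genes. Over left-out libraries in Tyk2Δ/Δ tumors Car1 ran from -0.24 to 0.36, Aqp8 from -0.70 to 0.22, Cdhr5 from -0.21 to 0.34 and Fabp2 from -0.64 to 0.15. In Tyk2ΔIEC tumors Aqp8 ran from -0.77 to 2.96, Krt20 from -0.58 to 0.24, Cdhr5 from -0.24 to 0.12 and Fabp2 from -0.26 to 0.95. Scaling to total counts moved 40 of 40 group means by less than 1 SD. The TMM factors lay between 0.935 and 1.03, so the means could move little, and this count says nothing about robustness.

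Deviations of libraries with the same replicate number had correlations over 500 genes of -0.19 to 0.01 in Tyk2Δ/Δ and Tyk2+/+ tumors. In Tyk2ΔIEC and Tyk2fl/fl tumors these ran from -0.47 to 0.21. Libraries with different numbers were not compared in this way, so a pairing is not excluded, and the main fits used none. With a replicate block, S100g was -1.24 (adjusted p = 0.180) in Tyk2Δ/Δ and 2.70 (adjusted p = 0.0362) in Tyk2ΔIEC tumors, where Cdhr5 was 0.18, with counts of 0 and 1 called as without it. Tyk2fl/fl replicates 5 to 7 share no number with a Tyk2ΔIEC library, and each formed a block alone. They added nothing to these fold changes, which rest on replicates 1 to 4 of both groups. Tyk2fl/fl replicate 6, the highest of its group in S100g (11.6 CPM), was thus no part of the value of 2.70. Groups of 3 and 4 libraries and counts as low as 8 limit what could be called.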

Other observations

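Outside the 10 genes, 5 genes of the epithelial lists were called for a difference between the deletions, all negative, where 1.80% of all genes were called negative and 0.812% positive. They were 1 of 20 transport genes, 1 of 20 brush border genes, 1 of 12 regulators, 1 of 8 enteroendocrine markers and 1 of 7 squamous markers tested. The other epithelial lists held no called gene. These had 4 guanylin signalling, 5 calcium absorption, 5 small intestinal and 12 pan-epithelial genes tested. They also had 12 Wnt and stem cell genes, 8 goblet, 3 tuft and 6 Paneth cell markers. The peptide hormone Pyy differed by -3.30 (SE 0.76, adjusted p = 0.0143), with -1.27 (adjusted p = 0.0483) in Tyk2Δ/Δ and 2.04 (adjusted p = 0.0126) in Tyk2ΔIEC tumors, and was called in both. The sodium/proton exchanger Slc9a2 differed by -1.29 (SE 0.38, adjusted p = 0.0495), with -0.39 in Tyk2Δ/Δ and 0.91 in Tyk2ΔIEC tumors. Prdm1 differed by -1.05 (SE 0.27, adjusted p = 0.0250), Emp1 by -1.20 (SE 0.35, adjusted p = 0.0439) and Krt4 by -2.51 (SE 0.46, adjusted p = 0.00359). These 5 genes were picked out after their values had been seen, and the difference between the control groups enters each value.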
